A study of Bos taurus with 16 samples.

Results

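The 10 genes described here make, restrain or break down polyamines, and each was found by its symbol at 1 of the 22358 loci counted in 16 pools of bovine blastocysts. They are *ODC1*, *AMD1*, *SRM*, *SMS*, *OAZ1*, *OAZ2*, *AZIN1*, *SAT1*, *PAOX* and *SMOX*. They were chosen by their place in the pathway and selected on the measured *ODC1* level, which was known to be among the highest of all loci, so levels are given as a description and only the difference between diets, which did not enter the choice, was tested. The Control pools came from 4 lactating Holstein cows on a basal diet, and the Methionine pools from 4 cows given that diet with rumen-protected methionine from calving to embryo flushing, with 2 pools per cow. Pools are named by diet (C or M), cow and pool number. All cows were superovulated and inseminated with semen of 1 of a pair of sires. The labels name the tissue IVF embryos, whereas the study's methods describe blastocysts flushed from the uterus. The cows' ages were not given, and embryos were flushed within a week of synchronized ovulation. The number of embryos differed between pools, and C4.1, C4.2 and M8.2 each held a single blastocyst, so a value stands for 1 or a few blastocysts of 1 cow. Most Methionine pools held more blastocysts than any Control pool. Most also had a lower RNA quality number than any Control pool for which the study gave one. Diet therefore cannot be fully told apart from embryo number or RNA quality.

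Polyamines are small positively charged molecules that bind nucleic acids and are needed by dividing cells. *ODC1*, ornithine decarboxylase, makes putrescine from ornithine. *AMD1*, S-adenosylmethionine decarboxylase, turns the methyl donor made from methionine into the donor of aminopropyl groups. *SRM*, spermidine synthase, and *SMS*, spermine synthase, add those groups to give spermidine and spermine. Antizymes (*OAZ1*, *OAZ2*) bind the ornithine decarboxylase protein and send it to the proteasome, and *AZIN1*, the antizyme inhibitor, binds antizyme in its place. *SAT1* acetylates spermidine and spermine, *PAOX* oxidizes the acetylated forms, and *SMOX* oxidizes spermine directly. Much of this control acts on translation and protein turnover, which RNA counts do not measure.

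Control pool C3.2 was left out by the study for its small share of exonic reads, and its values are given apart. In the other 15 pools the total count ranged from 5624126 to 7778414 in Control (n = 7) and from 5941973 to 7826542 in Methionine (n = 8), against 1745048 in C3.2. Levels are given as CPM, the count of a locus scaled to a common pool total. A count of 3 corresponded to between 0.383 and 0.533 CPM in the 15 pools. Markers of trophectoderm averaged at least 1 CPM for 8 of 8 genes, those of inner cell mass for 5 of 5 and those of hypoblast for 2 of 4, *SOX17* and *GATA4* being at or near 0. These are means, and not every gene was counted in every pool. Among the 15 pools *ELF5* exceeded 1 CPM only in C4.1 and M6.1, and *CDX2* and *LIN28B* were at 0 in several. The 8 leukocyte markers summed to 2364 CPM in Control pool C2.1 and to at most 29.7 CPM in any other of the 15 pools, with *LAPTM5* and *TYROBP* at 0 in every Methionine pool. Almost all of the C2.1 sum was *LAPTM5*, *NKG7*, *TYROBP*, *LCP1* and *CD53*. The markers *PTPRC*, *CORO1A* and *CD74* had only 3.2, 2.49 and 2.49 CPM there. Markers of uterine epithelium summed to at most 4.71 CPM those of red cells to at most 0.168 CPM, those of cumulus and granulosa to at most 57 CPM and those of the oocyte to at most 22.4 CPM. In pools of whole embryos, fewer cells of a type and less RNA per cell cannot be told apart.

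By mean CPM over the 15 pools, *ODC1* was at rank 15 of all loci and was the most counted member. The order of the members by mean CPM was *ODC1*, *OAZ1*, *OAZ2*, *SMS*, *AMD1*, *PAOX*, *SRM*, *AZIN1*, *SAT1* and *SMOX*. Counts were not divided by transcript length, so this is an order of reads and not of transcripts. Only the gap below *ODC1* and the gap above *SMOX* separated neighbours without overlap between pools. The lowest *ODC1* pool had 2933 CPM and the highest *OAZ1* pool 1148 CPM, while the lowest *SAT1* pool had 5.89 CPM and the highest *SMOX* pool 2.42 CPM. All other neighbours in this order overlapped, and *OAZ2*, for example, ranged from 140.1 to 1115 CPM and *SMS* below it from 141.9 to 491.8 CPM.

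**Figure D1:**
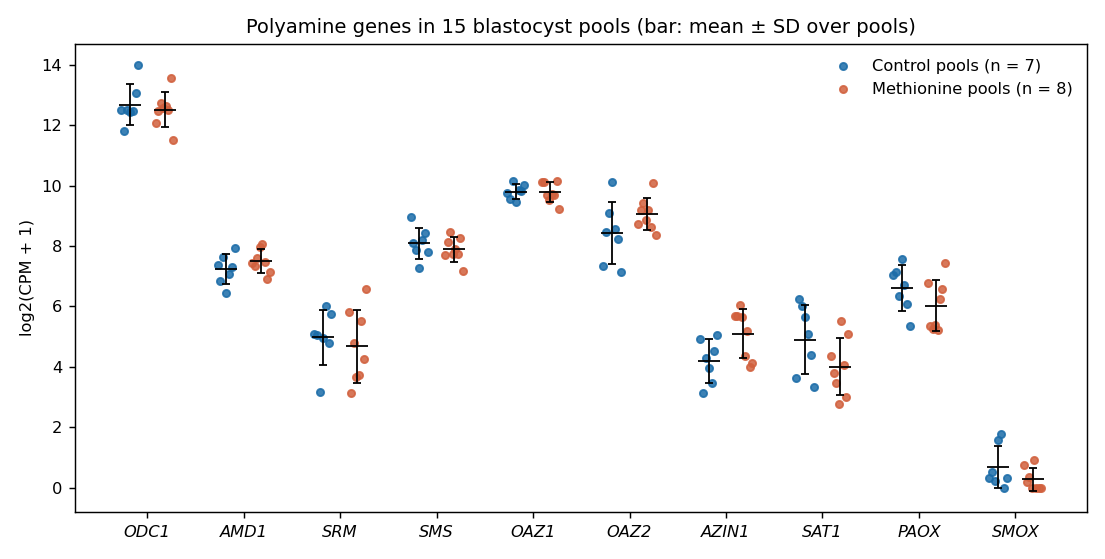
Each point is 1 of the 15 analysed pools, with log2(CPM + 1) on the vertical axis, the 10 genes on the horizontal axis, 7 Control pools in blue and 8 Methionine pools in orange, and bars for the mean ± SD over pools. *ODC1* lies above and *SMOX* below all other members in every pool, and the diets overlap for all 10 genes.

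*ODC1* was counted 21718 to 125762 times per pool. Among Control cows, the first and second pools had 5747 and 3574 CPM for cow 1, 5751 and 5526 CPM for cow 2 and 8481 and 16168 CPM for cow 4, and the analysed pool of cow 3 had 5646 CPM. Among Methionine cows, they had 4307 and 5676 CPM for cow 5, 6751 and 6110 CPM for cow 6, 6331 and 5842 CPM for cow 7 and 12025 and 2933 CPM for cow 8. Most pools of both diets lay close together, and 1 pool of each diet stood above the rest. *ODC1* was the most counted of all loci in C4.2 and at rank 6 in M8.1, and its rank reached 50 in M8.2, the second pool of the same cow. The Control cow that gave C4.2 also gave the next highest Control pool. Both of these pools, and M8.2 with the lowest *ODC1* level, were the single blastocysts, and no other analysed Control or Methionine pool was one. The 8 trophectoderm markers had their highest sum in C4.2 too, at 7944 CPM against a range of 2513 to 7368 CPM in the other 14 pools. Most of it was *KRT18*, at 5104 CPM, and *KRT8*, at 2114 CPM against at most 570.1 CPM elsewhere, whereas *CDX2* and *ELF5* were near 0 in C4.2, at 0.129 CPM each. The 5 cumulus and granulosa markers also had their highest sum in C4.2, at 57 CPM, all of it *CYP19A1*. The part of embryo number and of these markers in the *ODC1* level was not tested.

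*ODC1* averaged 7270 ± 4176 CPM in Control (SD, n = 7 pools) and 6247 ± 2643 CPM in Methionine (SD, n = 8 pools). With the pools of a cow averaged, Methionine minus Control was -0.14 ± 0.31 on the log2(CPM + 1) scale (SE, 4 cows against 4, exact permutation test over 70 assignments, two-sided p = 0.857). By edgeR's exact test the log2 difference was -0.18 with FDR = 1. The difference was smaller than the spread between cows. Its direction rested on cow 4, since without it the log2 difference by edgeR's exact test was 0.27.

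*AMD1* ranged from 85.1 to 244.8 CPM in Control, with a median of 158.4, and from 118.5 to 267.4 CPM in Methionine, with a median of 175.6. Its pools of both diets overlapped over most of this range. Methionine minus Control was 0.28 ± 0.23 in log2(CPM + 1) (SE, exact permutation test over cows, p = 0.257) and the FDR by edgeR's exact test was 1. Where *AMD1* meets *ODC1* in the pathway, their counts did not keep 1 ratio between pools. The *ODC1* count was 21 times the *AMD1* count in M8.2 and 101.5 times in M8.1, the pools of cow 8, and between 23.7 and 66.1 times in the other 13 pools.

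The 2 aminopropyl transferases differed in how evenly they were counted. *SMS* ranged from 154.1 to 491.8 CPM in Control (median 271.3) and from 141.9 to 354.8 CPM in Methionine (median 224.6). *SRM* ranged from 8 to 63.8 CPM in Control (median 32.1) and from 7.79 to 95.3 CPM in Methionine (median 22.5). The spread of *SRM* thus exceeded that of *SMS*, with an SD of log2(CPM + 1) over the 15 pools of 1.05 against 0.46. *SRM* was also counted less than *SMS*, and neither was compared with loci of like level. The pools of cow 8 were far apart in *SRM*, with 18.4 CPM in M8.1 and 95.3 CPM in M8.2. The log2 difference of cow means was -0.21 ± 0.21 for *SMS* (SE, exact permutation test, p = 0.343) and -0.43 ± 0.48 for *SRM* (SE, exact permutation test, p = 0.4). Neither difference passed the test, and that of *SRM* by edgeR's exact test was -0.08.

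*OAZ1* was the most evenly counted member. It ranged from 704.1 to 1148 CPM in Control (median 899.7) and from 603 to 1131 CPM in Methionine (median 825). The highest pool had 1.9 times the level of the lowest, and the SD of log2(CPM + 1) over the 15 pools was 0.28, against a median of 1 over the 10519 loci tested and of 0.75 over the 4970 loci that reached 10 counts in each of these pools. Most of those loci were counted less than *OAZ1*, which was at rank 193 by mean CPM, and loci of like level were not compared. The highest *OAZ1* value was that of C2.1, the pool with the highest leukocyte marker sum, but M8.1, at 1131 CPM, was close to it. The means were 899.1 ± 153.4 CPM in Control (SD, n = 7) and 895.9 ± 202.1 CPM in Methionine (SD, n = 8). Methionine minus Control was -0.03 ± 0.13 in log2(CPM + 1) over cows (SE, exact permutation test, p = 0.914).

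*OAZ2* varied more, from 140.1 to 1115 CPM in Control (median 352.3) and from 331.1 to 1094 CPM in Methionine (median 522.1). Every Methionine pool exceeded the 3 lowest Control pools, C4.2, C1.1 and C4.1, but pools C2.2 and C2.1 of cow 2 had 1115 and 546.8 CPM. The log2 difference of cow means was 0.62 ± 0.44 (SE, exact permutation test, p = 0.257), and the FDR by edgeR's exact test was 0.92. With 1 cow left out in turn, the difference ranged from 0.37 without cow 4 to 1.01 without cow 2. Cow 2 was the highest Control cow in *OAZ2*, so the gap without it was not taken as a test. Relative to *OAZ1*, *OAZ2* was lowest in C4.2, with 0.137 counts per *OAZ1* count, and highest in C2.2, with 1.58. The pool with the highest *ODC1* CPM thus had the lowest *OAZ2* CPM of the 15, whereas M8.1, the next highest in *ODC1*, had the second highest *OAZ2* CPM.

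*AZIN1* showed the largest positive log2 difference between diets among the 9 members tested. It had 29.2, 7.8, 18.7, 14.7, 10, 21.9 and 32.5 CPM in Control pools C1.1, C1.2, C2.1, C2.2, C3.1, C4.1 and C4.2. In Methionine it had 50, 50.9, 64.9, 49.5, 19.5, 35.4, 15 and 16.5 CPM in M5.1 to M8.2. The 4 pools of cows 5 and 6 lay above every analysed Control pool, cow 7 had 1 pool above and 1 within the Control range, and both pools of cow 8 lay within it. By the study's counts, the Methionine pools above that range held more blastocysts than any Control pool, and those within it did not. Of the pools above the range, all but M7.2 also had a lower RNA quality number than any Control pool with a value. So did M7.1, which lay within the range. The part of embryo number and of RNA quality in the *AZIN1* level was not tested. The mean was 19.2 ± 9.31 CPM in Control (SD, n = 7) and 37.7 ± 18.9 CPM in Methionine (SD, n = 8). Over cows the log2 difference was 0.99 ± 0.5 (SE, exact permutation test, p = 0.143). By edgeR's exact test the unadjusted p was 0.0558 and the FDR 0.61, so the difference was not called. With pool C3.2 included the log2 difference by edgeR's exact test turned to -0.12.

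The pools of 1 cow were closer in *AZIN1* than pools of different cows on the same diet. The median absolute difference in log2(CPM + 1) was 0.38 between the pools of a cow (7 pairs) and 1 between cows (42 pairs). For *OAZ1* these medians were 0.19 and 0.4, and for *ODC1* 0.4 and 0.62. For *OAZ2* the order was the other way, with 1.03 within cows and 0.73 between cows, and for *SRM* with 1.79 and 1.04. The pairs share pools, and these medians were not tested.

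**Figure D2:**
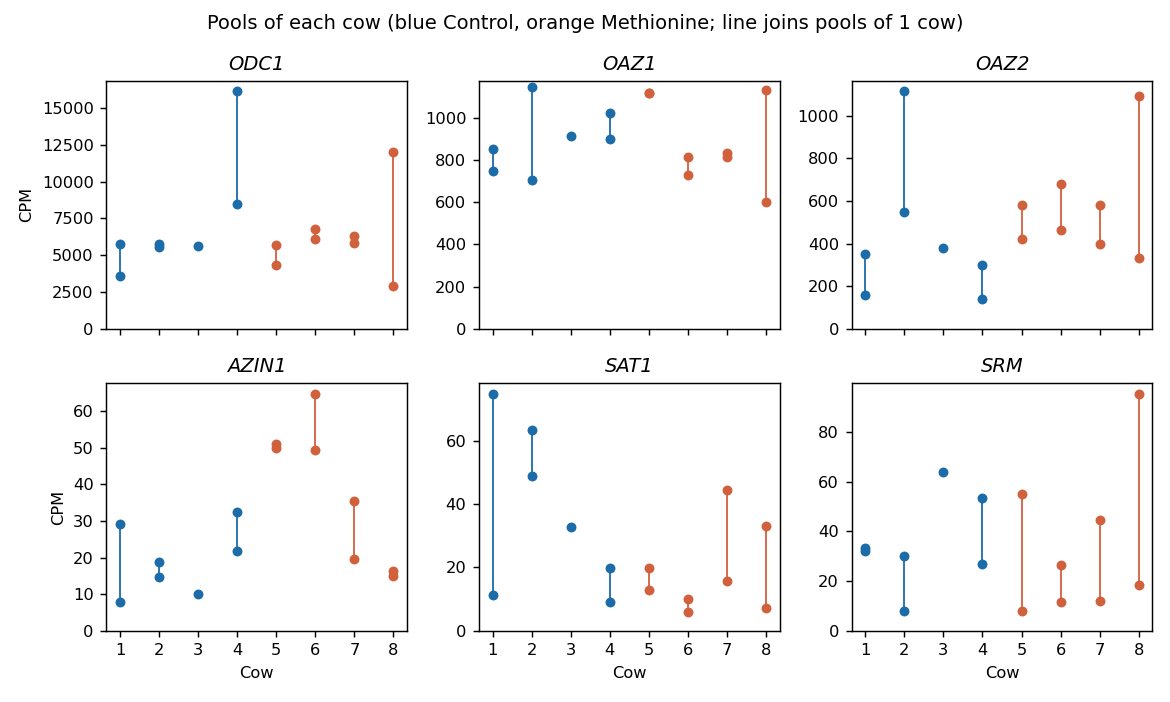
CPM of 6 members on the vertical axis (starting at 0) by cow on the horizontal axis, with a line joining the pools of a cow, Control cows 1 to 4 in blue and Methionine cows 5 to 8 in orange. Cow 3 has 1 analysed pool. The *ODC1* pools of cow 8 lie at 12025 and 2933 CPM, and the *AZIN1* pools of cow 5 at 50 and 50.9 CPM.

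Among the catabolic enzymes, *SAT1* ranged from 9.13 to 74.7 CPM in Control (median 32.9) and from 5.89 to 44.5 CPM in Methionine (median 14.3). The 3 highest pools were Control pools C1.2, C2.1 and C2.2, but the other Control pools, C1.1, C3.1, C4.1 and C4.2, lay within the Methionine range. The mean was 37.1 ± 25.8 CPM in Control (SD, n = 7) and 18.6 ± 13.6 CPM in Methionine (SD, n = 8). Over cows the log2 difference was -0.92 ± 0.53 (SE, exact permutation test, p = 0.171), and by edgeR's exact test it was -0.97 with FDR = 0.73. This was the largest negative difference among the 9 members tested, and it was not called. C2.1, the pool with the highest leukocyte marker sum, had 63.3 CPM. Without this pool the log2 difference by edgeR's exact test was -0.73 with FDR = 0.93. With the left-out pool C3.2 included, it was -1.83 with FDR = 0.15.

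*PAOX* ranged from 39.7 to 190.3 CPM in Control (median 104) and from 36.3 to 171.6 CPM in Methionine (median 57.4). Cows 1, 2 and 3 on the Control diet and cow 8 on the Methionine diet averaged between 104 and 135.6 CPM, and the other 4 cows between 38.9 and 74.8 CPM. The log2 difference of cow means was -0.59 ± 0.48 (SE, exact permutation test, p = 0.314). By edgeR's exact test it was -0.5 with FDR = 0.92, and with 1 cow left out in turn it ranged from -1.03 without cow 8 to -0.26 without cow 1.

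*SMOX* was near the limit of counting. It had 13 counts in C2.2, 18 in C3.1, 7 in M7.1 and 5 in M5.1, and at most 3 in each of the other 11 analysed pools, 5 of which had 0. Its CPM summed to 7.57 over the 15 pools, below the minimum of 15 required for testing, so 9 of the 10 members entered the fit. When 1 count sufficed for testing, *SMOX* entered the fit and was not called.

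Of the 9 members tested, 0 were called in either direction at an FDR under 0.1 by edgeR's exact test, beside 1.05% of the 10519 loci tested. The smallest FDR was that of *AZIN1*, and 0 of the 9 had an unadjusted p under 0.05 by this test, beside 8.54% of all loci. By edgeR's quasi-likelihood test 0 of 9 were called and 1, *AZIN1*, had an unadjusted p under 0.05 (FDR = 0.49), beside 8.64% of all loci. DESeq2 called 0 of 9 members and 0.656% of all loci, and limma's voom, which took the cow as a random effect, called none of either. In both, *AZIN1* alone among members had an unadjusted p under 0.05, as had 7.42% of all loci by DESeq2 and 4% by voom. With the pools of each cow summed, edgeR's exact test called 0 of 9, beside 0.742% of all loci, and 0 of 9 had an unadjusted p under 0.05, beside 6.91% of all loci. For 0 of the 9 members did all cows of one diet exceed all cows of the other, beside 2.29% of all loci. The exact permutation p adjusted over the 10519 loci was 1 for each member and for every other locus, so it does not set members apart. The smallest unadjusted p that this test allows is 0.0286, which no member and 2.29% of all loci reached. The median log2 difference was -0.08 over the 9 members and -0.05 over all loci tested, with 3 members positive and 6 negative. A call not made does not show equal levels, and the SE of the differences between cows ranged from 0.13 for *OAZ1* to 0.53 for *SAT1*.

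**Figure D3:**
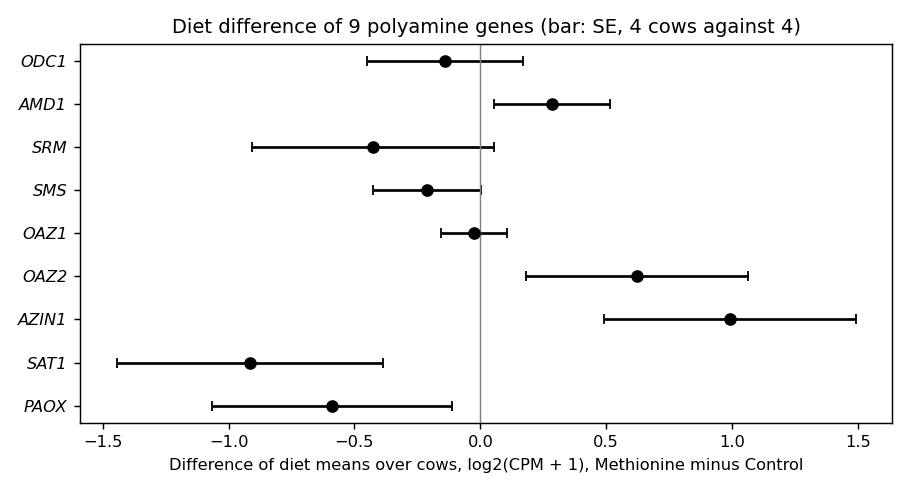
Difference of the diet means over cows in log2(CPM + 1), Methionine minus Control, on the horizontal axis for the 9 members tested, with the SE over 4 cows against 4 as bars. The points run from -0.92 for *SAT1* to 0.99 for *AZIN1*, and *OAZ1* has the narrowest bar, with an SE of 0.13.

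Ratios of counts within a pool set members against each other independently of the total. Since transcript length enters each ratio, only its variation between pools is described. The *ODC1* count over the *OAZ1* count ranged from 4.77 to 15.8 in Control (median 6.74) and from 3.85 to 10.6 in Methionine (median 7.38). The *OAZ1* count over the *AZIN1* count ranged from 29.3 to 96 in Control (median 47.9) and from 12.6 to 75.3 in Methionine (median 22.7). The 2 lowest values of this antizyme to inhibitor ratio were those of the pools of cow 6, 12.6 and 14.7. *PAOX* over *SAT1* ranged from 1.26 to 11.5 in Control and from 0.816 to 13.3 in Methionine, and *SMS* over *SRM* from 4.21 to 29 and from 1.49 to 35.7. The diets overlapped in each of these ratios, and no test was made on them.

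**Figure D4:**
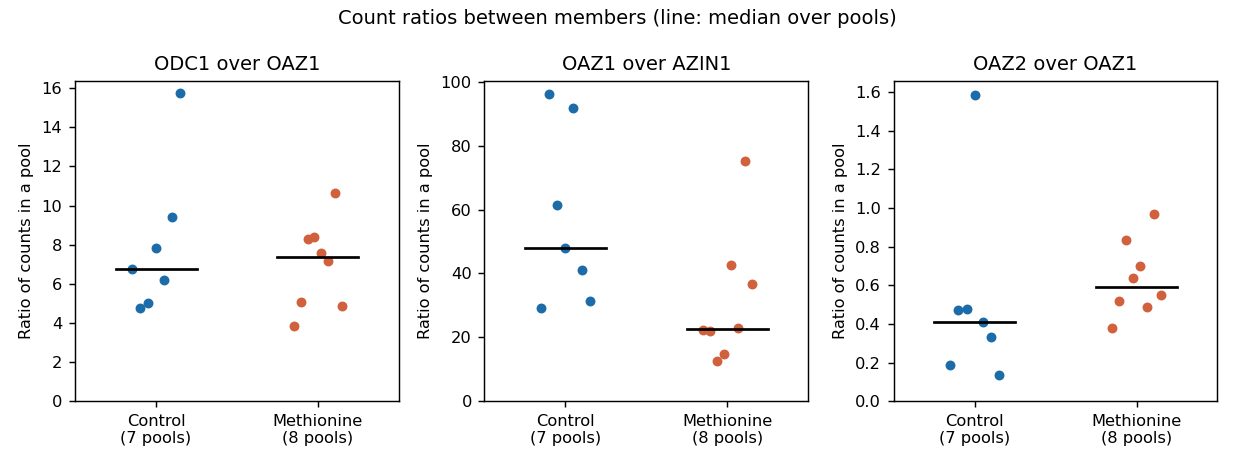
Ratio of the counts of 2 members in each analysed pool on the vertical axis (starting at 0), by diet on the horizontal axis (7 Control and 8 Methionine pools), with a line at the median. The median of *OAZ1* over *AZIN1* is 47.9 in Control and 22.7 in Methionine, and the pools of both diets overlap in all 3 panels.

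A wider list of 37 genes of polyamine supply, use and transport held 35 that were found in the files, of which 23 were tested. By edgeR's exact test 0 of the 23 were called in either direction, beside 1.05% of all loci, and 5 (21.7%) had an unadjusted p under 0.05, beside 8.54%. These 5 were *ENOPH1*, *SLC7A5*, *SLC12A8*, *SLC22A2* and *OAZ3*, and the last 3 had most of their counts over the analysed pools in 1 pool. An unadjusted p under 0.05 was reached by 4 of 23 with the quasi-likelihood test (8.64% of all loci), by 2 with DESeq2 (7.42%), by 0 with limma's voom (4%) and by 4 with the pools of each cow summed (6.91%), and each of these called 0. The median log2 difference was 0.06, with 14 genes positive and 9 negative.

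For ornithine and arginine supply, *OAT*, ornithine aminotransferase, had 425.5 ± 256.8 CPM in Control and 609 ± 371.8 CPM in Methionine (SD, n = 7 and 8 pools, FDR = 0.86 by edgeR's exact test). *ARG2*, the mitochondrial arginase, had 107.7 ± 40.8 and 127.6 ± 37.8 CPM (FDR = 1). *SLC7A5*, a carrier of large neutral amino acids, had a median of 49.8 CPM in Control and 42.7 CPM in Methionine, with 234.6 CPM in C1.1, and its FDR was 0.51. The hepatic arginase *ARG1* had counts in 3 of the 15 pools. *AZIN2*, listed under its older symbol *ADC*, is an antizyme inhibitor rather than a supply enzyme and had 1 count in all.

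For the supply of S-adenosylmethionine, *MAT2A* and *MAT2B*, the catalytic and regulatory subunits of methionine adenosyltransferase, had means of 192.1 ± 52.5 and 83.9 ± 56.8 CPM in Control and of 145.5 ± 65.7 and 92.6 ± 59.3 CPM in Methionine (SD, n = 7 and 8 pools). Their FDR by edgeR's exact test was 0.82 and 1. *MAT1A*, the form of adult liver, had 20 counts in C4.2 and 0 in the other 14 pools. In the salvage of methionine from the by-product of aminopropyl transfer, *MTAP*, which opens the route, ranged from 48.1 to 251.7 CPM in Control and from 107.4 to 297 CPM in Methionine. All 5 salvage genes were tested and 0 were called, beside 1.05% of all loci. *APIP* and *ENOPH1*, which follow later in the route, had means of 13.4 and 3.99 CPM in Control and of 19.4 and 14.1 CPM in Methionine. *ENOPH1* had 294 of its 983 counts in M8.1, and its FDR by edgeR's exact test was 0.42.

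Spermidine is used to modify the translation factor EIF5A to its hypusine form. *EIF5A* had 987.8 ± 445 CPM in Control and 1292 ± 448 CPM in Methionine (SD, n = 7 and 8 pools, FDR = 0.97 by edgeR's exact test). Of the enzymes of this step, *DOHH* had 82.1 ± 53.8 and 116.9 ± 82.5 CPM and *DHPS* 12.4 ± 8.83 and 9.55 ± 6.08 CPM. Of these 3 genes 0 were called, beside 1.05% of all loci. Among transcription factors known to act on *ODC1*, *MYCN* had a median of 20.9 CPM in Control and 28.1 CPM in Methionine and its highest value, 94.2 CPM, in C4.2, the pool with the most *ODC1*. *MYC* itself had at most 6.43 CPM in any of the 15 pools, and *MAX* and *MXI1* averaged 8.02 and 10.9 CPM over them. The *MXI1* mean rested on a few pools, with a median of 1.48 and a maximum of 60.7 CPM in Control. In Methionine these were 2.45 and 51.3 CPM.

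Polyamine carriers were counted at low levels in the analysed pools. *ATP13A3*, *SLC12A8* and *SLC22A2* averaged 2.56, 4.57 and 1.28 CPM. Over these pools *SLC22A2* had 146 of its 148 counts in C4.2, and *SLC12A8* had 65.1% of its counts in M6.1. In the left-out pool C3.2, *SLC12A8* had 424.1 CPM. *SAT2* ranged from 0.81 to 107 CPM in Control and from 0.14 to 56.2 CPM in Methionine. *OAZ3*, the antizyme of the male germ line, had 304 of its 312 counts in M5.2 and 0 counts in every analysed Control pool, with FDR = 0.18 by edgeR's exact test. *AOC1*, listed under its older symbol *ABP1*, had 0 counts.

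Over the 8 cow means of log2(CPM + 1), the 5 loci most like *ODC1* among the 4961 that had at least 10 counts in every analysed pool and were not members were *NUP98* (Pearson's r = 0.96, Spearman's rho = 0.74), *SPTLC2* (0.94 and 0.9), *EIF3F* (0.93 and 0.93), *CAP1* (0.91 and 0.76) and *EEF2* (0.91 and 0.67). These values describe a ranking over n = 8 cows that share the total of their pools, and cow 4 was the highest in *ODC1*.

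In the Control pool that the study left out, C3.2, most members lay outside the range of the 15 pools. This pool had only 1745048 counts, at 7736 loci. The share of all loci outside that range was not computed, so this is not taken as a trait of these genes. *ODC1* had 12536 counts or 7184 CPM and rank 16 in this pool, within the range of the others. *SMS* had 13 counts, or 7.45 CPM, where the lowest of the 15 pools had 141.9 CPM. *OAZ1* and *OAZ2* had 115.8 and 25.2 CPM, and *AMD1* and *PAOX* 49.9 and 20.1 CPM, all below every analysed pool. *AZIN1* and *SAT1* had 104.3 and 166.8 CPM, above every analysed pool. The *ODC1* count was thus 62.1 times that of *OAZ1* in C3.2, against at most 15.8 times elsewhere. A count of 3 corresponds to 1.72 CPM there, so only *SMOX*, with 0 counts, was under the limit of counting. The pool also held the leukocyte marker *PTPRC* at 159.3 CPM, against at most 6.68 CPM in the other pools, with *LCP1* and *NKG7* at 0 and a sum of 166.2 CPM over the 8 leukocyte markers, and the part of this in the *SAT1* and *AZIN1* levels was not tested.

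**Figure D5:**
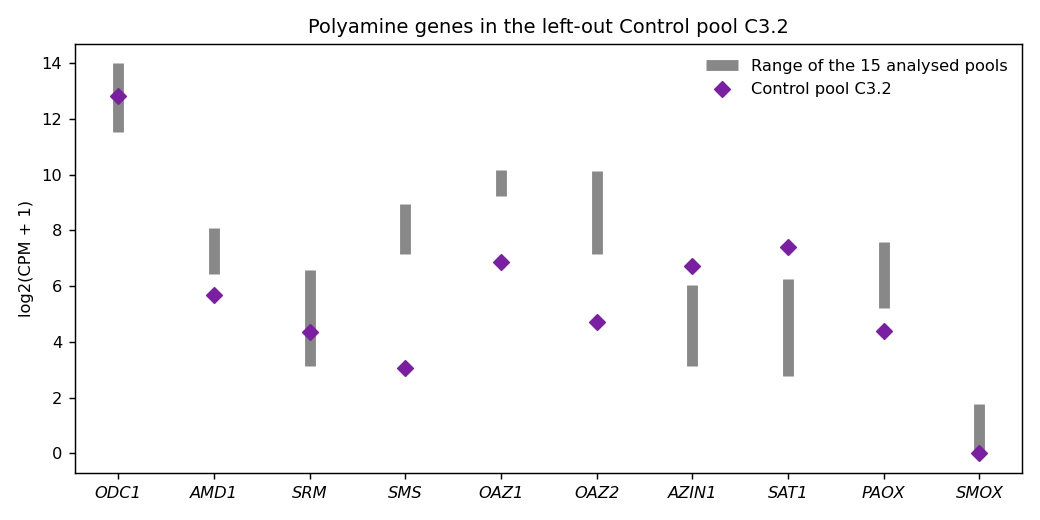
log2(CPM + 1) on the vertical axis for each member on the horizontal axis, with a bar for the range over the 15 analysed pools and a diamond for Control pool C3.2. The diamond lies below the bar for *AMD1*, *SMS*, *OAZ1*, *OAZ2* and *PAOX*, and above it for *AZIN1* and *SAT1*.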

How the data were processed

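Read counts per assembled locus were used for 16 embryo pools. The authors amplified the RNA, mapped reads to bosTau7 with TopHat2 2.0.4, assembled transcripts with Cufflinks 2.0.2 and counted with HTSeq, and deposited raw counts without normalization, as 1 file of 22552 rows per pool. Linear amplification can change the level of a gene between pools, and the counting can split reads between a gene and near-identical copies. Loci listed under several names (182) entered once. Pool C3.2 was left out, as in the study. No 2 pools held the same library (smallest chi-square per degree of freedom 51). Loci whose CPM added up to 15 or more in the 15 pools were compared with edgeR 4.0.16 (R 4.3.3), using TMM factors, common and tagwise dispersions, the exact test and Benjamini-Hochberg adjustment, a locus being called at FDR under 0.1. This test takes the 2 pools of a cow as independent, so its p-values measure in part the spread between pools of a cow. Cow means of log2(CPM + 1) were therefore compared by exact permutation over 70 assignments, two-sided. The code was tested on simulated data. Alternatives used the quasi-likelihood test, DESeq2 1.42.0, limma 3.58.1, other scalings, filters and pools. A floor of 3 counts covers counting error only. Members and lists were chosen with earlier results of these data known. Genes named are all members, the 3 wider-list genes of highest mean CPM per role and any called, and the 5 loci most like *ODC1*. *ARG1*, *AZIN2*, *MYC* and single markers were named after their values were seen. No sequences, transcript lengths or coordinates in the files' build were used here.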

Additional observations from a re-analysis of the deposited data

Results flagged for a closer look

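Dixon's 95% limit was used only to flag pools, in 20 sets (10 genes in each diet), and not as a test. In 4 of the 20 sets the highest pool stood apart from the nearest by more than this limit. The limit assumes independent normal values, whereas pools of a cow are related and the sets share pools, so no chance rate is given. The *ODC1* level had also entered the choice of genes. *ODC1* had 16168 CPM in Control pool C4.2, the next Control pool having 8481 CPM, and 12025 CPM in Methionine pool M8.1, the next having 6751 CPM. *OAZ2* had 1115 CPM in Control pool C2.2, the next having 546.8 CPM, and 1094 CPM in M8.1, the next having 679.2 CPM. M8.1 was therefore the highest Methionine pool in both genes, whereas C4.2 was the highest in *ODC1* and the lowest in *OAZ2*.

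In Control pool C3.2, which entered no comparison, 2 members exceeded all 15 analysed pools. The share of all loci that did so was not computed. *AZIN1* had 104.3 CPM, the highest other pool having 64.9 CPM, and *SAT1* had 166.8 CPM, the highest other pool having 74.7 CPM.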

How the results depend on the processing

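No member was called under the exact test or any of its 19 alternatives. The number of loci called, 110 by edgeR's exact test, was 0 by the quasi-likelihood test, with or without the pool number as a replicate block, and by limma's voom, 69 by DESeq2, 356 with all 16 pools, 66 with C2.1 also left out, 55 when 1 count sufficed for testing and 0 when 10 counts were required in each pool. It ranged from 50 without cow 8 to 149 without cow 4, and was 64 without cow 7. Of the refitted log2 differences of members, 161 kept their direction and 10 did not. *ODC1* ranged from -0.34 to 0.27 and *SRM* from -0.54 to 0.18 with a cow left out. *OAZ1* changed direction at 0.00027 with cows summed, 0.13 with all 16 pools and 0.076 without C2.1, and ranged from -0.078 to 0.041 with a cow left out. *AZIN1* was -0.12 with all 16 pools. Of the differences of cow means, 7 changed direction. *SMS* turned to 0.43 and *OAZ1* to 0.35 with all 16 pools, and with a cow left out *ODC1* ranged from -0.31 to 0.15, *OAZ1* from -0.14 to 0.036 and *OAZ2* from 0.37 to 1.01. The causes were not tested. Levels per transcript length were not run, since no transcript lengths were used here.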
